A study of Mus musculus with 30 samples.

Results

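Epithelial cells taken back out of mouse lung organoids after exposure to TGF-β were compared with those from vehicle-treated organoids of the same mice. The comparison used every library whose labels read CD45-/CD31-/Epcam+ cells with the treatment TGFb or Vehicle, which gave 7 of the 30 libraries of the series: 3 TGFb libraries (mice 2, 3 and 4) and 4 vehicle libraries (mice 1 to 4). In each culture, 300000 Epcam+ lung cells of wild-type C57BL/6J mice, depleted of CD31+ and CD45+ cells, were embedded in Matrigel with an equal number of CCL206 cells, a mouse lung fibroblast line whose division had been blocked with mitomycin C. The cultures received TGF-β at 2 ng/ml or vehicle for 72 hours, were broken up, and were separated again on Epcam microbeads into an epithelial (Epcam+) and a fibroblast (Epcam-) fraction, each sequenced as bulk RNA. The fibroblast fraction of the same cultures, 4 TGFb libraries (mice 1 to 4) and 3 vehicle libraries (mice 1, 3 and 4), was used to read how much fibroblast RNA the epithelial libraries carried. All fibroblast libraries came from a common cell line, so a mouse number there stands for the mouse whose epithelium shared the culture.

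TGF-β binds a pair of receptor kinases, TGFBR2 and TGFBR1, which phosphorylate SMAD2 and SMAD3. These enter the nucleus with SMAD4 and change the transcription of matrix, cytoskeletal and cell-cycle genes, while BMPs act through a parallel set of receptors and SMADs that induce the ID genes. In the lung TGF-β is stored in the matrix in a latent form that the epithelial integrin αvβ6 releases, and it is known for driving fibroblasts to myofibroblasts and for inducing epithelial-mesenchymal transition (EMT) in cultured epithelium. Fibroblasts express many of the genes by which EMT is read, so in a fraction sorted from a co-culture an epithelial rise of such genes and carried-over fibroblast RNA give the same signal.

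The library totals ran from 12402492 to 20317181 counts in the vehicle group and from 8275413 to 18826266 in the TGFb group, so that 3 reads corresponded to 0.363 counts per 1000000 (CPM) in the shallowest library and to 0.148 CPM in the deepest. On the 500 most variable genes the first principal component held 86.8% of the variance and placed the vehicle libraries between -34.6 and -27.95 and the TGFb libraries between 37.6 and 46.2. The 36 epithelial markers summed to 19553–22825 CPM in the vehicle libraries and to 11346–12099 CPM in the TGFb libraries. Of the other cell types, the 25 immune markers summed to 331–384 CPM with vehicle and to 245–283 CPM with TGF-β, with the T cell marker Cd3e at 0 in all 7 libraries and the pan-leukocyte marker Ptprc at 0 to 5 reads. The 18 endothelial markers stood at 21.3–27.6 and 23.0–29.6 CPM, and the 16 markers of mesothelium and other stroma at 870–1089 and 811–952 CPM. Among these non-epithelial lists the 30 fibroblast markers differed most in sum, with 506–838 CPM with vehicle and 3200–3531 CPM with TGF-β.

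The amount of fibroblast RNA in each epithelial library was therefore estimated first. For 16 to 19 fibroblast markers with at least 50 CPM in the matching fibroblast library (that of the same culture), the CPM in the epithelial library was divided by that in the fibroblast library, and the median ratio was taken as the share of fibroblast RNA. For mouse 2 with vehicle the mean of the other vehicle fibroblast libraries served as the partner. The vehicle libraries of mice 1 to 4 held 9.49, 5.18, 3.88 and 5.54% fibroblast RNA (6.02% ± 2.42, SD, n = 4). With TGF-β the libraries of mice 2, 3 and 4 held 26.8, 28.3 and 33.2% (29.4% ± 3.32, SD, n = 3). Every TGFb library lay above every vehicle library, and the share was 21.7, 24.4 and 27.6 percentage points higher with TGF-β within mice 2, 3 and 4. The difference of the means was 23.4 percentage points with a two-sided exact permutation p of 0.0571, the smallest that 4 against 3 libraries can give. The share is a proportion, so it also rises where epithelial RNA falls. More fibroblasts in the Epcam+ fraction, more RNA per fibroblast, and fewer epithelial cells or less RNA in them cannot be told apart in bulk RNA. The same limit of cell number against RNA per cell holds for any other cell type below. In the opposite direction, the Epcam- libraries held 15.6, 15.2 and 28.9% epithelial RNA with vehicle (mice 1, 3 and 4) but 1.26, 2.74, 0.938 and 3.22% with TGF-β (mice 1 to 4).

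**Figure D1:**
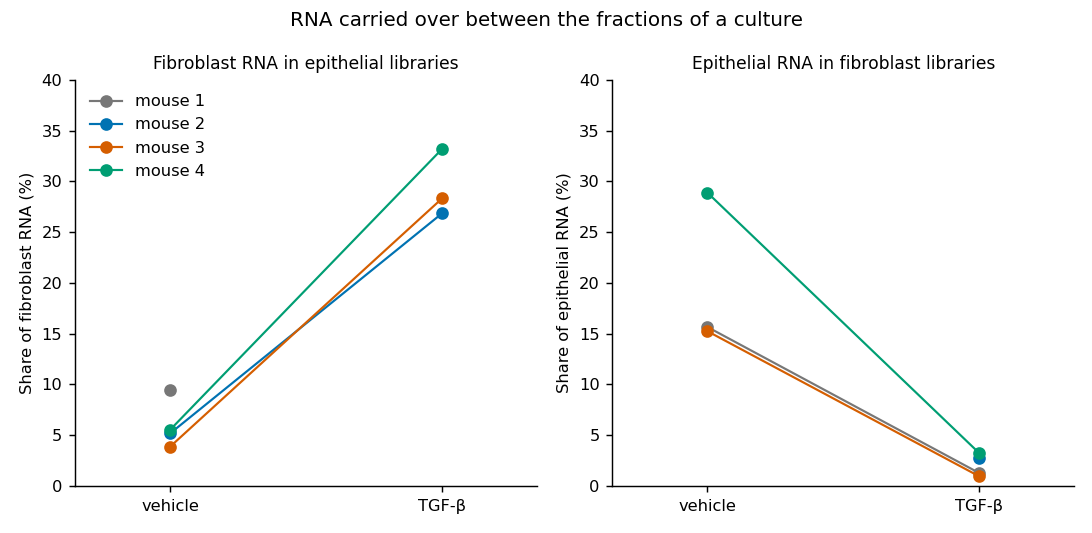
Estimated percent of fibroblast RNA in each epithelial library (left) and of epithelial RNA in each fibroblast library (right), by treatment, with a point per library, colours for mice and lines joining the libraries of a mouse. In the epithelial fraction the 4 vehicle libraries sit between 3.88 and 9.49% and the 3 TGFb libraries between 26.8 and 33.2%, and in the fibroblast fraction the order of the treatments is the other way round.

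Because of this, every gene is given below with 3 measures. The plain log2 fold change (TGFb minus vehicle, with its standard error) came from edgeR's quasi-likelihood test with the mouse as a block. The mixture-adjusted log2 fold change came from the same test with an offset holding the level expected if the epithelial RNA had not changed and the estimated share of the partner fibroblast library had been mixed in. A value of 0 thus means a level that the mixture matches, up to the TMM factors. Both fits applied these factors, while the shares and the expected levels were taken from CPM without them. The matched percent is the part of a TGFb library's CPM that its own fibroblast share times the partner's CPM comes to. Under this mixture the CPM of an epithelial gene with no fibroblast expression and no change would differ by -0.414 on the log2 scale. The plain log2 fold change also holds the TMM factors, so such a gene need not lie at -0.414 there. The reference markers behind the share have a median near 0 on the adjusted scale by construction (-0.05). Single markers can still depart from it. Of the 28 tested, 3 were called higher and 4 lower on that scale, where 9.15% and 13.9% of all genes were. Levels are given as CPM, with means ± SD over the 4 vehicle and the 3 TGFb libraries.

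Of 55487 gene models in the files, 18387 had a mean of at least 1 count and were tested; 3906 were higher with TGF-β (21.2%) and 3768 lower (20.5%) at an edgeR adjusted p under 0.05, with a median log2 fold change of 0.05 over all genes. On the mixture-adjusted scale 1682 were higher (9.15%) and 2555 lower (13.9%). These shares of all genes are the background for every list count below. Of the 3906 higher genes, 1441 were also higher after the adjustment, 2397 were no longer called and 68 were called lower. Of the 3768 lower genes, 2309 were also lower after it, 1458 were no longer called and 1 was called higher. Among the 1903 genes with a plain log2 fold change over 1, the fibroblast share matched at least 50% of the TGFb level in all 3 mice for 912 genes and less than 10% in all 3 for 213. The treatment effect rested on 3 pairs of libraries with 2 residual degrees of freedom, so the very small p-values lean on the spread shared over genes. That shared spread carried a weight of 146.9 degrees of freedom in the plain fit and 56063.1 in the adjusted fit. The p-values on the adjusted scale thus hold almost nothing of a gene's own spread. With all 15 epithelial libraries of the 4 treatments in the model, 3783 genes were higher and 3617 lower, and the adjusted p of Fn1, the smallest in the paired fit, went from 5.28e-84 to 1.96e-12 (edgeR). A further 240 genes that were not called on the plain scale were higher on the adjusted one. The rest of the account is ordered from the genes whose rise the fibroblast share matched to those whose rise it did not, followed by the epithelial programmes that fell.

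**Figure D2:**
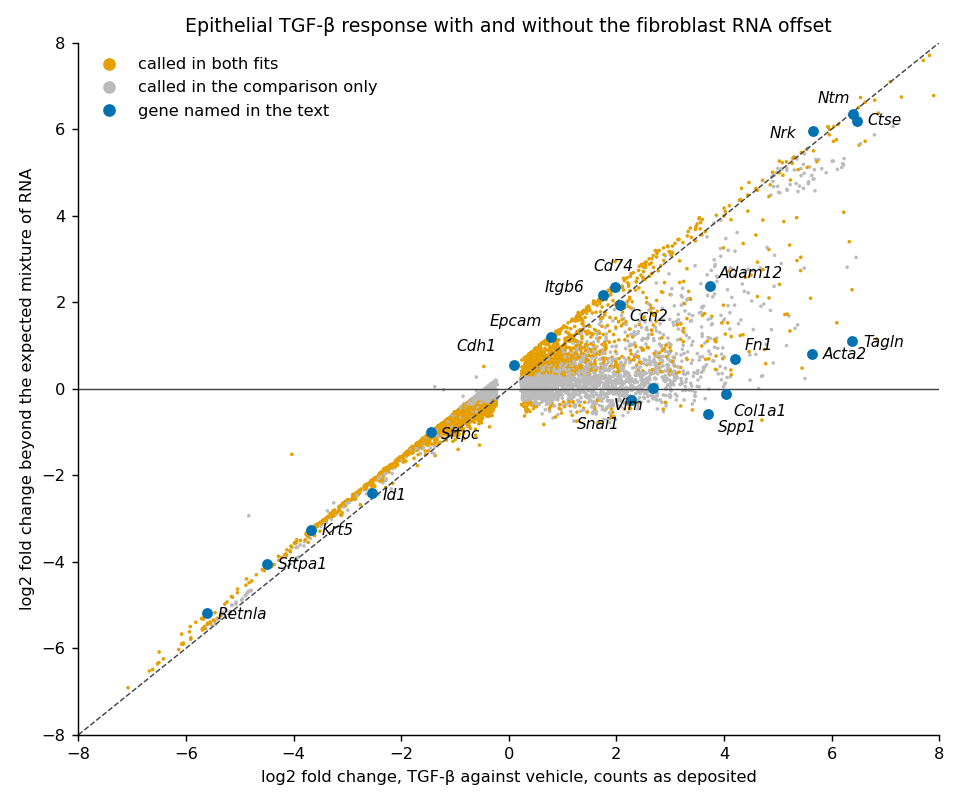
Plain log2 fold change (TGFb minus vehicle, x axis) against the mixture-adjusted log2 fold change (y axis) for each gene called on the plain scale in the epithelial fraction, orange where it was also called on the adjusted scale, with named genes and the uncalled Cdh1 in blue and a dashed line of equal values. Matrix genes such as Col1a1 and Vim lie far to the right and near 0 on the y axis, while Ctse, Nrk and Ntm lie near 6 on both.

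Matrix genes were higher almost throughout, and for the fibrillar collagens named here the fibroblast share came to most or all of the level. Of 38 matrix genes, 37 were higher and 0 lower on the plain scale (median log2 fold change 2.81, against 0.05 over all genes), and 14 were higher and 5 lower after the adjustment (median 0.35, against 0.00). In the fibroblast fraction 26 of the 38 were higher and 2 lower, where 7.70% of all genes were higher and 12.2% lower. Col1a1, a chain of type I collagen, measured 131, 70.1, 68.8 and 53.9 CPM in the vehicle libraries of mice 1 to 4 and 1182, 1116 and 1090.0 CPM in the TGFb libraries of mice 2, 3 and 4. The groups were far apart (plain log2 fold change 4.03, adjusted p 4.84e-76, edgeR), yet the fibroblast share matched 83.4, 125 and 126% of the TGFb levels and the adjusted value was -0.13 (p 0.442). Col1a2, the other chain, gave 3.47 and -0.18, Col5a1 and Col5a2 of type V collagen gave 3.99 and 0.05 and 4.03 and 0.13, and Fbn1, the fibrillin of microfibrils, gave 4.48 and 0.20 on the plain and adjusted scales. None of these adjusted values was called in this fit, but the calls moved with the estimate of the share. Col5a2, matched to 77.7, 86.0 and 84.7%, and Fbn1 were called higher with the lower quartile share (0.33 and 0.31, edgeR adjusted p 0.0152 and 0.0438). Col5a2 was also called with the share subtracted (edgeR adjusted p 1.91e-06). Fbn1 was called there too, but the fibroblast share matched 114, 109.7 and 90.2% of its TGFb levels in mice 2, 3 and 4. The subtraction sets negative counts to 0, so the subtracted value of 10.01 for Fbn1 rests on the TGFb library of mouse 4. Col1a1 and Col1a2 were called lower with the share from both mesenchymal lists (-0.28 and -0.32, edgeR adjusted p 0.0493 and 0.0109), and Col1a2 also with the share from Xist (-0.37, edgeR adjusted p 0.0158). Fbln2, a fibulin that also served as a reference marker, gave 3.54 and 0.05.

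The rise of 3 secreted matrix proteins was smaller than the fibroblast share alone came to. Spp1, which encodes osteopontin, rose from 369.9 ± 79.8 CPM to 4759 ± 937 CPM, but the fibroblast share came to 130.3, 142 and 157% of these levels and the adjusted log2 fold change was -0.58 (edgeR adjusted p 4.53e-08). Bgn, the proteoglycan biglycan, gave 3.19 plain and -0.40 adjusted (p 0.000863, edgeR), and Mgp, the calcification inhibitor matrix Gla protein, 4.70 and -0.73 (p 5.30e-06, edgeR). With the share taken from the lower quartile of the marker ratios, the adjusted values of Spp1, Bgn and Mgp were -0.47, -0.24 and -0.67, and Bgn was no longer called (p 0.061, edgeR).

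Fn1 and the enzymes that cross-link collagen went beyond the mixture. Fibronectin (Fn1) is a glycoprotein through which integrins bind the matrix. It measured 747, 401, 419 and 425 CPM with vehicle (mice 1 to 4) and 7414, 8261 and 9167 CPM with TGF-β (mice 2 to 4), with no overlap between the groups. The plain log2 fold change was 4.21 ± 0.09 (SE; edgeR adjusted p 5.28e-84), the fibroblast share matched 67.4, 66.4 and 64.2% of the TGFb levels, and the adjusted log2 fold change was 0.69 ± 0.09 (p 9.39e-12). Lox and Loxl2, lysyl oxidases, gave adjusted values of 1.25 and 1.23 (edgeR adjusted p 7.79e-20 and 0.0007), with 44.9, 29.3 and 37.6% and 56.0, 50.1 and 84.4% of their TGFb levels matched.

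The transcription factors and filaments by which EMT is usually read gave fewer calls on the adjusted than on the plain scale. Of 24 EMT regulators and markers, 15 were higher and 6 lower on the plain scale (median 1.54), where 21.2% of all genes were higher and 20.5% lower. On the adjusted scale 1 was higher and 4 lower (median -0.03), beside 9.15% and 13.9% of all genes. Vim, the intermediate filament vimentin, rose from 168 ± 46.3 to 1008 ± 34.2 CPM with an adjusted log2 fold change of 0.01 (p 0.973, edgeR), and Cdh2, N-cadherin, from 6.32 ± 2.60 to 40.3 ± 0.216 CPM with 0.25 (p 0.327, edgeR). Snai1, a repressor of E-cadherin, stood at 1.84, 1.44, 2.76 and 1.13 CPM with vehicle and at 8.66, 8.99 and 10.3 CPM with TGF-β. Its groups did not overlap, while the fibroblast share came to 81.3, 144 and 137% of the TGFb levels and the adjusted value was -0.27 (p 0.6, edgeR). Zeb1, a second repressor of the same target, gave 3.32 plain and 0.37 adjusted (p 0.127, edgeR). With the fibroblast share subtracted instead of offset, Cdh2 and Zeb1 were still called higher (edgeR adjusted p 0.00484 and 0.046), and Zeb1 was also called with the lower quartile share in the offset (0.51, edgeR adjusted p 0.0203). On the epithelial side, Esrp2, a splicing factor that keeps epithelial isoforms, fell from 176 ± 14.4 to 76.9 ± 8.94 CPM (plain -1.31, adjusted -0.87), and Ovol1, a repressor of mesenchymal genes, gave -1.24 and -0.80. The neural and progenitor filament nestin (Nes) and the adhesion molecule Ncam1 were among the strongest plain calls (3.84 and 5.45) and had small adjusted values of 0.45 and 0.48 (edgeR adjusted p 0.000594 and 0.0357). Neither was called with the fibroblast share taken from both mesenchymal lists (0.28 and 0.31, edgeR adjusted p 0.0641 and 0.238) or from Xist (0.042 and 0.25, edgeR adjusted p 0.878 and 0.438).

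Contractile genes rose further than the fibroblast share. Of 19 tested, 17 were higher and 0 lower on the plain scale (median 1.79), 11 higher and 0 lower on the adjusted scale (median 0.60), and 13 higher in the fibroblast fraction. Acta2, smooth muscle α-actin and the classic myofibroblast gene, measured 6.34, 5.61, 4.13 and 4.60 CPM in the vehicle libraries and 249, 303 and 204 CPM in the TGFb libraries. All TGFb values lay above all vehicle values (plain log2 fold change 5.64 ± 0.14, edgeR adjusted p 5.63e-79). The fibroblast libraries of the same TGF-β cultures held 398, 577 and 339.9 CPM (mice 2 to 4), so their share matched 42.9, 53.9 and 55.2% of the epithelial levels, and the adjusted log2 fold change was 0.81 ± 0.14 (edgeR adjusted p 1.53e-07). Tagln, an actin-binding protein of smooth muscle, rose from 0.716 ± 0.195 to 62.0 ± 10.1 CPM with 41.5, 46.7 and 44.0% matched and an adjusted value of 1.10 (p 0.000404, edgeR). Actg2, the enteric smooth muscle actin, gave 2.29 on the adjusted scale, and Cald1, caldesmon, 0.69 (edgeR adjusted p 0.000163 and 5.70e-09).

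Direct feedback and effector genes of the TGF-β pathway were mostly higher. Of 30 targets, 24 were higher and 4 lower on the plain scale (median 1.23), and 16 higher and 3 lower after the adjustment (median 0.35); in the fibroblast fraction 14 were higher and 6 lower. Ccn2, the matricellular protein CTGF, measured 105, 92.2, 97.0 and 76.9 CPM with vehicle and 372, 455 and 379 CPM with TGF-β, against 158, 133 and 75.4 CPM in the fibroblast partners of the same mice. Each TGFb library was thus above both its vehicle counterpart and its fibroblast partner, with plain and adjusted log2 fold changes of 2.07 and 1.94 (edgeR adjusted p 1.99e-43 and 9.40e-68). Its relative Ccn1 gave 1.27 and 1.62, from 247, 226, 396 and 636 CPM to 621, 1011 and 1582 CPM; the vehicle library of mouse 4 lay above the TGFb library of mouse 2, and the rise held within each mouse. Pdgfb, a growth factor for mesenchymal cells, rose from 15.1 ± 3.70 to 93.2 ± 16.7 CPM (adjusted 2.56), and Cdkn2b, the cell-cycle inhibitor p15, from 9.18 ± 1.43 to 26.1 ± 6.18 CPM (adjusted 1.88), each with under 10% of its TGFb level matched. Wnt11, a non-canonical Wnt ligand, went from 0.534 ± 0.468 to 5.00 ± 1.79 CPM with an adjusted value of 3.63.

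Other targets were partly matched by fibroblast RNA. The adjusted log2 fold change was 0.59 for Pmepa1 and 0.94 for Skil, both inhibitors of SMAD signalling. The fibroblast share matched 42.7, 49.9 and 57.0% of the TGFb levels of Pmepa1 and 45.0, 26.3 and 21.9% of those of Skil. Smad7, the inhibitory SMAD, was higher on the plain scale (30.6 ± 6.41 to 48.0 ± 4.05 CPM, log2 fold change 0.46, edgeR adjusted p 0.00132), and was no longer called without mouse 2 (p 0.13, edgeR) or on the adjusted scale (0.04, p 0.876, edgeR). Bambi, a decoy receptor, fell (11.2 ± 2.19 to 5.72 ± 2.06 CPM, plain -1.22, adjusted -0.94).

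Of the ligands, receptors and latency factors, 19 of 28 were higher and 3 lower on the plain scale and 12 higher and 2 lower on the adjusted scale. Among ligands, Tgfb1 rose from 14.2 ± 3.75 to 48.7 ± 5.57 CPM but was matched by the fibroblast share (adjusted -0.17, p 0.475, edgeR), whereas Tgfb2 gave 0.39 plain and 0.75 adjusted, the plain call being lost without mouse 4 (p 0.0727, edgeR). Inhba, the subunit of activin A, rose from 10.8 ± 2.35 to 159 ± 13.5 CPM with an adjusted value of 1.11 (p 3.68e-16, edgeR). The receptors moved apart: Tgfbr1 was higher (87.9 ± 12.4 to 155 ± 16.5 CPM, adjusted 1.02) and Tgfbr2 lower (284 ± 13.7 to 218 ± 6.56 CPM, adjusted -0.34). Itgb6, the β6 chain of the integrin that releases latent TGF-β, measured 49.1, 52.6, 70.2 and 62.3 CPM with vehicle and 203, 219.8 and 246 CPM with TGF-β. The groups did not overlap, the fibroblast share matched at most 0.830% of these levels, and the adjusted log2 fold change was 2.16 ± 0.11. Thbs1, thrombospondin-1, which can also activate latent TGF-β, rose from 1021 ± 242 to 2956 ± 679 CPM (adjusted 1.36).

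The 10 genes with the smallest p on the adjusted scale, among those higher by over 1 on both log2 scales, were ones for which the fibroblast share matched under 5% of the TGFb level in each mouse. Ctse, the aspartic protease cathepsin E, measured 1.23, 0.961, 3.05 and 2.26 CPM with vehicle (mice 1 to 4), 208, 209.8 and 206 CPM with TGF-β (mice 2 to 4), and 4.26, 1.59 and 5.64 CPM in the fibroblast TGFb libraries of mice 2 to 4. No value of either comparison group came near the other, and the plain and adjusted log2 fold changes were 6.47 ± 0.16 and 6.18 ± 0.16 (edgeR adjusted p 1.44e-79 on the plain scale). Nrk, a serine/threonine kinase of the germinal centre kinase family, went from 2.80, 3.04, 3.94 and 3.95 CPM to 130.1, 236 and 233 CPM. It stayed at or below 1.44 CPM in the fibroblast TGFb libraries, and the log2 fold changes were 5.66 and 5.96. Ntm, which encodes the GPI-anchored adhesion protein neurotrimin, went from 0.955, 1.202, 0.394 and 0.161 CPM to 55.2, 48.0 and 52.7 CPM (6.41 and 6.35). In each of the 3 the highest vehicle library stood far below the lowest TGFb library.

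The same rule named 7 further genes. Rgs4, a regulator of G protein signalling, rose from 1.62 ± 0.859 to 56.4 ± 14.7 CPM and Kcnn3, a calcium-activated potassium channel, from 0.929 ± 0.389 to 44.1 ± 5.96 CPM (adjusted 5.26 and 5.34). Egfl6, a secreted protein with EGF repeats, rose from 13.5 ± 2.02 to 125 ± 29.7 CPM, and the sorting receptor Sorcs2 from 20.5 ± 7.51 to 148 ± 8.16 CPM (adjusted 3.45 and 2.67). Both Fermt1, the integrin activator kindlin-1, and Lama3, the α3 chain of laminin-332, belong to the machinery that anchors epithelium to its basement membrane. Fermt1 rose from 12.7 ± 3.53 to 94.8 ± 14.2 CPM and Lama3 from 18.7 ± 8.63 to 108 ± 13.9 CPM, with adjusted values of 3.20 and 2.88. The last of the 7, Cd74, is described with antigen presentation.

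**Figure D3:**
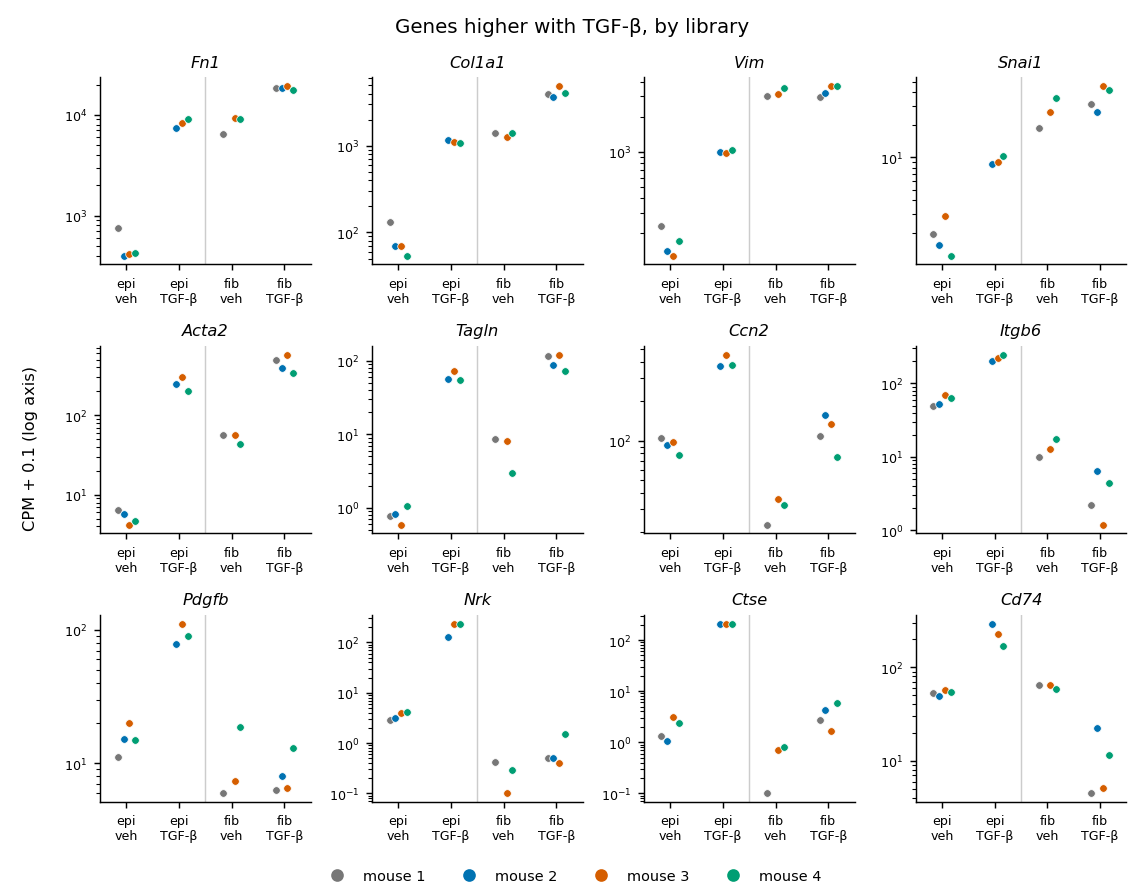
CPM, with a small constant added, in each vehicle and TGFb library of the epithelial and the fibroblast fraction, on a log10 axis, for genes that rose with TGF-β, with a point per library and colours for mice. For Ctse, Nrk and Itgb6 the epithelial TGFb points stand above the fibroblast points, while for Col1a1, Acta2 and Fn1 the fibroblast TGFb points are the highest.

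The promoters of Acta2, Nrk and Ntm are shown because they stand for the 2 kinds of rise, the one shared with the fibroblast line and those well above it. Each is the RefSeq window of GRCm38.p6 from 250 bases before to 50 bases after an annotated start, printed on the gene's strand. Capitals mark matches, on either strand, to CAGACA (a short SMAD element), TGAGTCA (the AP-1 site), CACCTG (the E-box bound by SNAI and ZEB factors) and GTCTAGAC (the palindromic SMAD element).
Acta2 (ENSMUSG00000035783), chr19:34255324-34255623, minus strand: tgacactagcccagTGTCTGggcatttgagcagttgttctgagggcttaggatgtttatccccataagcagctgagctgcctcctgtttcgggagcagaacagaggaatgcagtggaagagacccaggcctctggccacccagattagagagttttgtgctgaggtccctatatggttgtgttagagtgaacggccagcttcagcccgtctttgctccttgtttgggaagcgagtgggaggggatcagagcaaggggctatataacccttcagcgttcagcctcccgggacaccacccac
Nrk (ENSMUSG00000052854), chrX:138914180-138914479, plus strand: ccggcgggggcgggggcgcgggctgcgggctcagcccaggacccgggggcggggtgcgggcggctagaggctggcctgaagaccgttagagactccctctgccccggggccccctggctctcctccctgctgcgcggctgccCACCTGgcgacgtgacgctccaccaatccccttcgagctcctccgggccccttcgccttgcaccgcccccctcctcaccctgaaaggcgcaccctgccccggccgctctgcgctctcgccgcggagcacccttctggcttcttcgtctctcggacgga
Ntm (ENSMUSG00000059974), chr9:29413403-29413702, minus strand: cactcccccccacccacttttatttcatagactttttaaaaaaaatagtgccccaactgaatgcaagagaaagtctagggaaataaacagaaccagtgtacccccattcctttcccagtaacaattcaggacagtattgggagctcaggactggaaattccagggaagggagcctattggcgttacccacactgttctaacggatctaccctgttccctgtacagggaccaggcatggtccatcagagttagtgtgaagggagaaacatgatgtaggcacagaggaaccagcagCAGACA

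The windows of Acta2 and Ntm each held 1 match to CAGACA, that of Nrk held 1 match to CACCTG, and none of the 3 held the other letters searched. Over all 32851 windows of 27025 genes, CAGACA was in 21.0%, CACCTG in 20.2%, TGAGTCA in 5.20% and GTCTAGAC in 0.213%. Among the 419 genes higher by over 1 on both log2 scales and in all 3 mice, 293 had windows (383 in all), which held the same letters in 19.8, 26.6, 7.05 and 0.261%. For the 484 genes lower by the same rule, 347 had windows (421 in all), with 20.9, 28.5, 4.99 and 0.238%. CACCTG was thus in a larger share of the windows of both the higher and the lower genes than of all windows, while CAGACA was not; gene sets and all windows also differ in expression and base composition, and these shares are a description without a test.

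Integrins, laminins and proteases rose in part beyond the mixture. Of 25 integrin and laminin genes, 15 were higher and 6 lower on the plain scale, and 10 higher and 1 lower on the adjusted scale. Lamb3, the β3 chain of laminin-332, rose from 159 ± 17.9 to 288 ± 42.0 CPM and Itga2, the α2 collagen receptor chain, from 506 ± 96.4 to 844 ± 131 CPM (adjusted 1.15 and 0.95). Itgb3, the β3 chain of the vitronectin receptor, showed a plain log2 fold change of 5.51 but was matched to 86.6, 90.4 and 89.5% by fibroblast RNA (adjusted 0.24, p 0.52, edgeR; called with the share subtracted, edgeR adjusted p 0.00544). Of 25 proteases and inhibitors, 18 were higher and 3 lower on the plain scale and 6 higher and 2 lower on the adjusted scale. Adam12, a metalloprotease of the disintegrin family, rose from 7.03 ± 1.36 to 98.7 ± 10.4 CPM and was above its fibroblast partner in all 3 mice (adjusted 2.38). The collagenase Mmp13 had 0, 0.160, 0.345 and 0 CPM with vehicle and 4.89, 10.04 and 12.9 CPM with TGF-β (adjusted 3.04). Igfbp7, an IGF-binding protein of the matrix, rose from 29.5 ± 7.32 to 399 ± 20.8 CPM (adjusted 1.74).

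MHC class II genes, by which cells present peptides to CD4+ T cells and which alveolar type 2 cells are known to carry, were higher. The α chain gene H2-Aa measured 7.10, 7.05, 7.09 and 5.40 CPM with vehicle and 51.6, 36.8 and 26.3 CPM with TGF-β (adjusted log2 fold change 2.73 ± 0.17). The partner chains H2-Ab1 and H2-Eb1 rose from 8.24 ± 2.41 and 5.52 ± 1.13 CPM to 49.2 ± 17.5 and 34.5 ± 12.6 CPM. Cd74, the invariant chain, rose from 52.7, 49.1, 56.5 and 54.3 CPM to 293, 227 and 169.5 CPM, and Ciita, the transactivator of the class, from 0.726 ± 0.492 to 5.75 ± 3.03 CPM (adjusted 2.35 and 3.45). In these 5 genes every TGFb library exceeded every vehicle library and its fibroblast partner. Of the 25 immune markers 11 could be tested, of which 3 were higher and 1 lower on the plain scale (median log2 fold change 0.26) and 1 higher and 1 lower on the adjusted scale. Their sum was lower with TGF-β, as given above, and Ptprc had 0, 1 and 0 reads in the TGFb libraries of mice 2, 3 and 4; the part of immune cells in the class II rise was not tested. Class I genes took another course. H2-K1 and H2-D1 were lower on the plain scale (-0.51 and -0.30; H2-D1 was not called without mouse 2 or without mouse 3, edgeR adjusted p 0.0629 and 0.0783) and not called on the adjusted scale, and B2m, the light chain, gave 1.60 plain and 0.28 adjusted, a value no longer called with the share from both mesenchymal lists or from Xist (edgeR adjusted p 0.381 and 0.496). Of the 15 antigen presentation genes, 8 were higher and 2 lower on the plain scale and 9 higher and 0 lower on the adjusted scale.

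Epcam, on which the fraction was sorted, measured 216, 217, 210.1 and 222 CPM with vehicle and 384, 410.5 and 408 CPM with TGF-β, and was higher in all 3 mice (plain 0.78, adjusted 1.21). Since the cells were selected on its protein, this is the level in what the beads retained. Cdh1, E-cadherin, whose loss defines a complete EMT, was not called on the plain scale: it measured 759, 708, 834 and 774 CPM with vehicle and 872, 895 and 909 CPM with TGF-β, groups that did not overlap (log2 fold change 0.10 ± 0.09, edgeR adjusted p 0.378). With the fibroblast RNA taken into account the log2 fold change was 0.54 ± 0.10 (edgeR adjusted p 9.73e-07). The tight junction claudins were split, with Cldn4 and Cldn18 higher (268 ± 40.3 to 527 ± 82.2 and 172 ± 22.6 to 336 ± 65.9 CPM) and Cldn3 lower (201 ± 22.4 to 89.2 ± 18.0 CPM). The simple-epithelial keratins Krt7, Krt8 and Krt19 were lower on both scales and fell by 1.05, 0.40 and 0.95 on the adjusted log2 scale. Among 26 junction genes, 4 were higher and 10 lower on the plain scale and 10 higher and 4 lower on the adjusted scale. The offset raises genes that fibroblasts lack by about the same amount, the -0.414 of dilution, and that shift enters the difference between these counts (median log2 fold change -0.15 plain and 0.23 adjusted). The same holds for the 36 epithelial markers, with 2 higher and 26 lower on the plain scale and 7 higher and 15 lower on the adjusted scale (median -0.64 and -0.20).

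The Epcam and Sftpa1 promoters are shown for an epithelial gene that was higher and an alveolar one that was much lower, in the same build, with capitals as above. The Epcam window held 2 matches to CACCTG and that of Sftpa1 1 match to CAGACA.
Epcam (ENSMUSG00000045394), chr17:87635729-87636028, plus strand: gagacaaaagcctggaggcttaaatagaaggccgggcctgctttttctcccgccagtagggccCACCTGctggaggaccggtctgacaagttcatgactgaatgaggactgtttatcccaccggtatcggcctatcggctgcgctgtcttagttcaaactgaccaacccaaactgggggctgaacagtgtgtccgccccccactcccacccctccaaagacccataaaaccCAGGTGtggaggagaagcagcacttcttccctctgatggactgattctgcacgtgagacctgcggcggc
Sftpa1 (ENSMUSG00000021789), chr14:41131538-41131837, plus strand: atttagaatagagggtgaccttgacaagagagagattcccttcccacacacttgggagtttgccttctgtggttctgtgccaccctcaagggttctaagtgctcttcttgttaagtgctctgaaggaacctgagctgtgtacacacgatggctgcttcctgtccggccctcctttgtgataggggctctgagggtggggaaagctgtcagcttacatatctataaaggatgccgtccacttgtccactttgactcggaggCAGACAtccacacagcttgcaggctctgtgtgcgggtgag

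Alveolar type 2 (AT2) genes, which serve surfactant production, were lower. Of 25 AT2 genes, 22 were lower and 3 higher on the plain scale (median log2 fold change -1.24), and 18 lower and 3 higher on the adjusted scale (median -0.83). Sftpa1, surfactant protein A, measured 737, 839, 837 and 937 CPM with vehicle and 64.9, 40.5 and 24.3 CPM with TGF-β, a separation without overlap (plain -4.50 ± 0.12, edgeR adjusted p 3.90e-73; adjusted -4.05). Sftpc, surfactant protein C, measured 3881, 3709, 4995 and 3648 CPM with vehicle and 2639, 1596 and 984 CPM with TGF-β. The fall in Sftpc was thus smaller and uneven over the mice (plain -1.45, adjusted -0.99), and its plain call was lost with robust estimation of the prior (adjusted p 0.16, edgeR). Sftpb and Sftpd fell by 1.94 and 1.76 on the adjusted log2 scale. The lipid transporter Abca3 of lamellar bodies fell by 1.25, the lamellar body protein Lamp3 by 0.62, the phosphate transporter Slc34a2 by 0.97 and the lung chemokine Cxcl15 by 2.45 on that scale. Lamp3 was not called on the plain scale by DESeq2 (adjusted p 0.0582) or with robust estimation (p 0.302, edgeR), nor was Slc34a2 with the latter (p 0.146, edgeR). Lyz1, a lysozyme, went from 20.3 ± 3.88 to 1.353 ± 0.948 CPM, and Cebpa, a transcription factor of AT2 differentiation, from 177 ± 17.9 to 65.7 ± 20.1 CPM. Egfl6, which also stands in this list, was among the genes with the strongest rise.

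**Figure D4:**
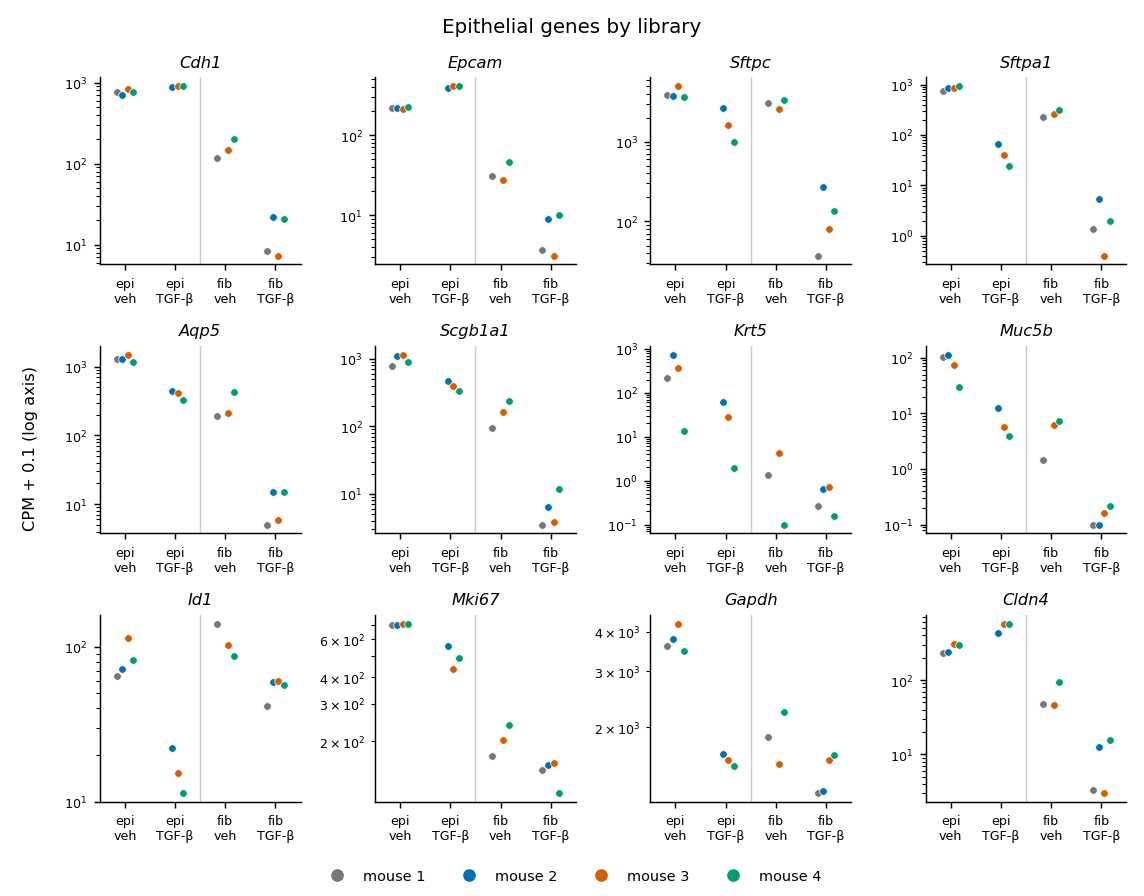
CPM, with a small constant added, in each vehicle and TGFb library of both fractions, on a log10 axis, with colours for mice. The genes are epithelial markers of alveolar, airway and junction type, and Id1, Mki67 and Gapdh. In the epithelial fraction the TGFb points of Sftpa1 and Scgb1a1 lie below all vehicle points, those of Cdh1 and Epcam do not, and Krt5 in the vehicle library of mouse 4 lies far below the other 3 vehicle libraries.

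Alveolar type 1 (AT1) genes, of the flat gas-exchange cell, were divided. Of 23, 8 were higher and 11 lower on the plain scale and 7 higher and 7 lower on the adjusted scale. The water channel Aqp5 fell from 1300.3 ± 132 to 396 ± 61.4 CPM and the cytoskeletal protein Clic5 from 191 ± 14.1 to 67.8 ± 13.4 CPM (adjusted -1.39 and -1.16). Smaller falls were measured for Ager, the receptor RAGE, and for the homeodomain protein Hopx (adjusted -0.44 and -0.40; Hopx was not called with the share from both mesenchymal lists, edgeR adjusted p 0.115). Pdpn, podoplanin, was not called (21.1, 28.5, 19.7 and 11.3 CPM with vehicle and 20.7, 20.7 and 13.1 CPM with TGF-β, edgeR adjusted p 0.33). In the other direction, the basement membrane collagens Col4a3 and Col4a4 rose from 9.62 ± 2.74 and 13.4 ± 2.86 to 36.6 ± 4.79 and 42.5 ± 3.00 CPM (adjusted 2.19 and 2.08). Of 25 genes of the transitional state between AT2 and AT1 cells, 6 were higher and 13 lower on the plain scale, and 6 higher and 14 lower on the adjusted scale. Clu, the chaperone clusterin, was among the higher ones, with 7394, 7539, 10563 and 8344 CPM in the vehicle and 16256, 18542 and 17392 CPM in the TGFb libraries.

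Airway genes fell as well. Of 19 club cell genes 16 were lower and 0 higher (median -1.54), with 15 lower and 1 higher on the adjusted scale. Scgb1a1, the club cell secretoglobin, measured 791, 1111, 1154 and 909 CPM with vehicle and 476, 397 and 338 CPM with TGF-β (plain -1.50, adjusted -1.06). The cytochrome Cyp2f2 fell by 1.78, the carbonyl reductase Cbr2 by 2.42, the selenium-binding protein Selenbp1 by 1.88 and the secreted defence protein Bpifa1 by 2.82 on the adjusted log2 scale. Lypd2, with 4.51 ± 0.708 CPM in the vehicle libraries, had 0.372, 0 and 0.121 CPM with TGF-β. Goblet cell genes showed 11 lower and 1 higher of 16 (9 lower and 0 higher after the adjustment). Retnla, a secreted resistin-like protein, measured 92.7, 151, 164 and 128 CPM with vehicle and 4.14, 3.73 and 1.45 CPM with TGF-β, the strongest fall by adjusted p (plain -5.61 ± 0.15, edgeR adjusted p 1.76e-74). The mucin Muc5b fell from 80.6 ± 37.9 to 7.16 ± 4.47 CPM and the disulfide isomerase Agr2 from 35.7, 36.4, 21.9 and 15.2 CPM to 3.88, 1.13 and 0.967 CPM. Muc5ac, the other gel-forming mucin, was near 1 CPM in both groups and was not called (edgeR adjusted p 0.158).

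Basal cell genes were mostly lower, and their levels differed widely between mice. Of 18, 15 were lower and 3 higher on the plain scale (median -2.95) and 12 lower and 2 higher on the adjusted scale. Krt5, the basal keratin, measured 220.2, 732, 371 and 13.4 CPM in the vehicle libraries of mice 1 to 4 and 61.8, 28.6 and 1.81 CPM with TGF-β in mice 2 to 4. The vehicle library of mouse 4 was below the TGFb libraries of mice 2 and 3, so the groups overlapped and the fall was seen within mice (plain -3.67, edgeR adjusted p 6.45e-61 with the mouse as a block and 0.00909 without it). Krt14 had 33.3, 134, 51.4 and 0.0806 CPM with vehicle and 9.56, 5.67 and 0.846 CPM with TGF-β, and was higher with TGF-β in mouse 4. Its call was lost with DESeq2 (adjusted p 0.256) and with robust estimation (p 0.0787, edgeR). The basal transcription factor Trp63, the receptor Ngfr, the keratin Krt15 and the glycerol channel Aqp3 fell by 1.76, 3.37, 3.33 and 3.73 on the adjusted log2 scale.

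Of 24 ciliated cell genes, 3 were higher and 6 lower on the plain scale, where 21.2% of all genes were higher and 20.5% lower. On the adjusted scale 7 were higher and 4 lower, beside 9.15% and 13.9% of all genes. Foxj1, the regulator of motile cilia, measured 26.1, 33.5, 24.0 and 11.3 CPM with vehicle and 21.4, 20.3 and 11.8 CPM with TGF-β. Its plain call (log2 fold change -0.42, edgeR adjusted p 0.0175) was lost without the block (p 0.18), with all 15 epithelial libraries in the model (p 0.103), with DESeq2 (p 0.105), without mouse 2 (p 0.521) and on the adjusted scale (0.01). Mcidas and Deup1, which serve the multiplication of centrioles in cells about to grow cilia, fell from 2.202 ± 1.23 and 2.89 ± 1.84 CPM to 0.0354 ± 0.0613 and 0.800 ± 0.634 CPM, while the axonemal dynein Dnah11 went from 0.595 ± 0.491 to 2.93 ± 0.914 CPM. Tekt1 was near 1 CPM in both groups and not called (edgeR adjusted p 0.629). Among the other genes with the smallest adjusted p for a fall, Reg3g, an antibacterial lectin, fell from 102 ± 62.2 to 2.10 ± 2.48 CPM, Ltf, lactoferrin, from 733 ± 269.9 to 136 ± 82.3 CPM, Upk1b, a uroplakin, from 283 ± 32.7 to 30.2 ± 6.50 CPM, Krt4, a mucosal keratin, from 202 ± 32.6 to 21.3 ± 5.97 CPM, and Myh7, a myosin heavy chain, from 285 ± 22.2 to 46.9 ± 8.89 CPM. Of 14 epithelial defence genes, 13 were lower and 0 higher on the plain scale and 5 lower and 0 higher on the adjusted scale.

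Proliferation genes were lower by small amounts. Of 34 cell-cycle genes, 25 were lower and 0 higher on the plain scale (median -0.42), and 16 lower and 0 higher on the adjusted scale (median -0.25). The -0.414 of dilution holds for the CPM of a gene that fibroblasts lack, so it is no direct measure for this plain median. Of the TGFb levels of Mki67, for example, the fibroblast share matched 7.43, 10.35 and 7.71%. Mki67, the Ki-67 antigen, measured 703, 699.9, 707 and 711 CPM with vehicle and 558, 435 and 492 CPM with TGF-β (adjusted -0.28, edgeR adjusted p 0.0239, but 0.102 with the share from both mesenchymal lists). The mitotic activator Cdc20 and the replication helicase subunit Mcm5 fell by 0.71 and 0.64 on the adjusted log2 scale. Among 21 cell-cycle inhibitors and p53 targets, 8 were higher and 6 lower on the plain scale, and 3 higher and 8 lower on the adjusted scale. Besides Cdkn2b, Cdkn2a was higher, with 0.955, 1.28, 1.08 and 0.564 CPM in the vehicle and 3.40, 7.37 and 4.83 CPM in the TGFb libraries and 0 in the fibroblast TGFb libraries (adjusted 2.66).

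Lipid synthesis genes showed 19 lower and 0 higher of 24 on the plain scale and 15 lower and 0 higher on the adjusted scale (median -0.33). Lss, lanosterol synthase of the cholesterol pathway, fell from 148 ± 11.1 to 76.8 ± 7.64 CPM (adjusted -0.76). Of 19 glycolysis and hypoxia genes, 10 were lower and 5 higher on the plain scale, and 10 lower and 0 higher on the adjusted scale. The glycolytic enzymes Gapdh and Ldha measured 3597, 3797, 4238 and 3466 and 2721, 2827, 2759 and 2717 CPM with vehicle and 1642, 1569 and 1509 and 1144, 1069.9 and 1008 CPM with TGF-β, with no overlap (adjusted -1.14 and -1.16).

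BMP signalling moved in both directions. Of 24 BMP and ID genes, 11 were higher and 7 lower on the plain scale and 9 higher and 6 lower on the adjusted scale. Id1, a direct BMP target, measured 64.1, 71.5, 113 and 82.1 CPM with vehicle and 22.1, 15.2 and 11.2 CPM with TGF-β, a fall in every mouse (plain -2.54, adjusted -2.41). The fibroblast share alone came to 71.7, 112 and 166% of those TGFb levels. Id3 was higher on the plain scale and lower on the adjusted scale (0.65 and -0.83; the plain call was lost without mouse 2, edgeR adjusted p 0.0617). The ligand Bmp4 fell from 86.9 ± 11.7 to 43.4 ± 8.79 CPM. Of 25 Wnt pathway genes, 10 were higher and 4 lower on the plain scale, where 21.2% of all genes were higher and 20.5% lower. On the adjusted scale 3 were higher and 2 lower, beside 9.15% and 13.9% of all genes. The ligand Wnt4 fell from 19.9 ± 4.08 to 1.94 ± 1.57 CPM and the stem cell receptor Lgr5 from 5.51 ± 1.45 to 0.645 ± 0.431 CPM (adjusted -3.05 and -2.87). The EGF and FGF list had 1 higher and 8 lower of 18 on the plain scale, and 1 higher and 5 lower on the adjusted scale.

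**Figure D5:**
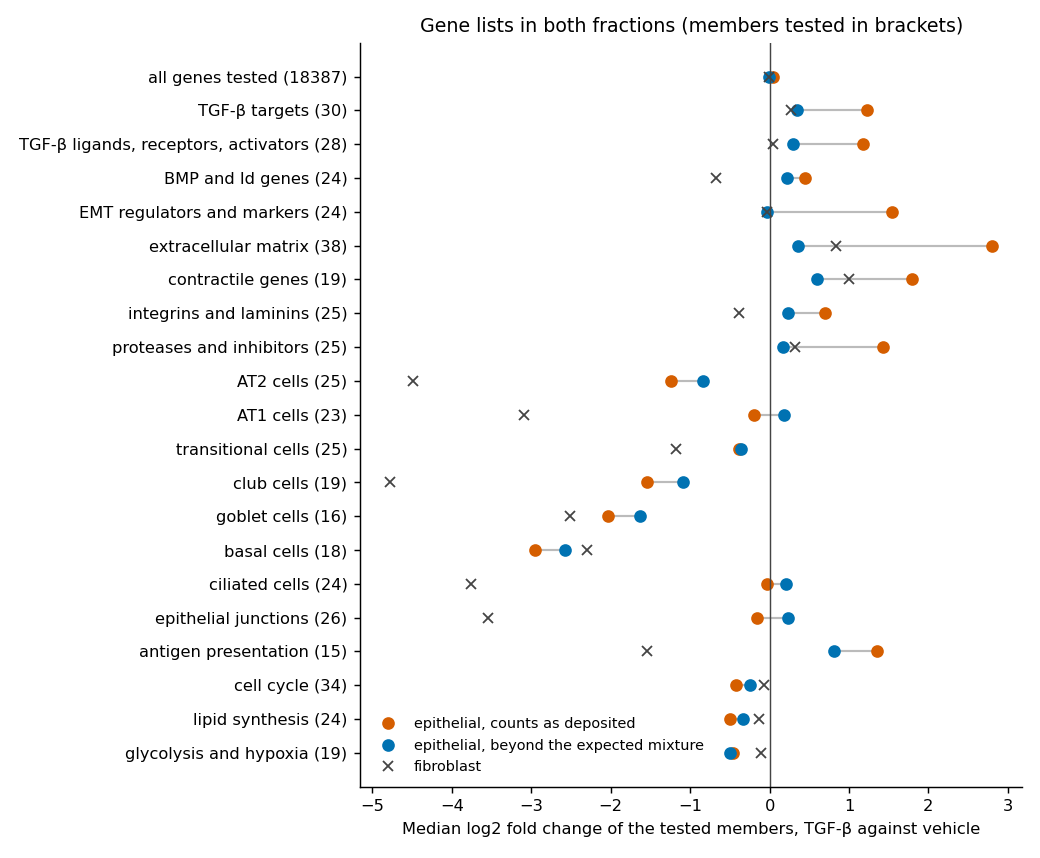
Median log2 fold change (TGFb minus vehicle) of each gene list in the epithelial fraction on the plain scale (orange) and on the mixture-adjusted scale (blue), and in the fibroblast fraction (crosses), whose epithelial lists move with the fall of epithelial RNA in those libraries. The matrix list moves from 2.81 to 0.35 and the EMT list from 1.54 to -0.03 between the scales, while the basal, goblet and club lists stay below -1 on both.

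Whether the fractions responded differently was tested as the interaction of fraction and treatment over the 14 libraries of both. Of 18558 genes tested, the log2 fold change was higher in the epithelial fraction for 3723 (20.1%) and lower for 1140 (6.14%) at an edgeR adjusted p under 0.05. Both carry-over shares move with this contrast, since fibroblast RNA rose in the epithelial libraries and epithelial RNA fell in the fibroblast libraries, and their part in it was not tested. The response was larger in the epithelial fraction for Ctse, Nrk and Ntm, by 3.60, 3.49 and 4.38 on the log2 scale. For Fn1 and Acta2 the log2 fold change in the epithelial fraction also exceeded that of the fibroblasts, by 2.97 and 2.41 (edgeR adjusted p 1.12e-13 and 1.57e-10). The level itself stayed higher in the fibroblasts, at 18548 and 451 CPM on average with TGF-β. Genes whose rise the mixture matched showed differences of like size, with 2.29, 2.31, 2.36 and 2.37 for Col1a1, Col1a2, Col5a1 and Col5a2 and 2.55 for Vim. Tgfb1, also matched, gave 0.24. The part of carry-over in the Fn1 and Acta2 differences was not tested. In the fibroblast fraction alone the log2 fold changes were 1.31 for Fn1, 3.29 for Acta2 and 1.81 for Col1a1.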

How the data were processed

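Epithelial (Epcam+) and fibroblast (Epcam-) RNA was sequenced with a strand-preserving library kit. The deposited files hold raw counts of reads per gene, 1 file per library with 55487 gene models, made by the authors; trimming was by Trimmomatic 0.30 and the authors' own tests by DESeq2 1.34.0, per the labels, while the aligner and counter are not given in the sources used here and the genome build of the counts is named differently in the labels and the study's methods, so no coordinate was taken from it. Mice numbered by the labels defined replicates, and a shared number means a shared mouse, which was a block in the model. Deviations from the group mean correlated between the vehicle and TGFb libraries of the same mouse at 0.489, -0.014 and 0.478 for mice 2, 3 and 4 over 9471 genes. Between different mice the values ran from -0.551 (vehicle of mouse 4, TGFb of mouse 2) to 0.338 (vehicle of mouse 3, TGFb of mouse 2). Deviations within a group sum to 0, so these values are not independent of each other.

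Counts were tested in edgeR 4.0.16 (R 4.3.3) with TMM factors, the quasi-likelihood F test and Benjamini-Hochberg adjustment over all genes with a mean of at least 1 count, called under 0.05. The vehicle library of mouse 1 has no TGFb partner, so it entered normalization and group means but not the blocked effect. Library totals were 8275413 to 20317181 counts, and a chi-square statistic of at least 5.71 per degree of freedom separated every replicate pair from sampling noise. The mixture offset combined the mean epithelial vehicle profile, after removal of fibroblast RNA, with the matching fibroblast library, with 0.1 CPM added. On simulated counts with fibroblast RNA, this fit recovered 53, 158 and 192 of 200 genes changed 1.5-fold, 2-fold and 4-fold, with 18 to 24 false calls. The simulation mixed in the same fibroblast libraries that the offset used, at fixed shares and without differences between mice. It therefore could not test whether these libraries stand for the carried-over fibroblasts, and its false calls do not measure those in the real data. Named genes were the 15 per direction with the smallest adjusted p in the plain fit, the 10 per direction with the smallest in the adjusted fit (absolute log2 fold change above 1 with mice 2, 3 and 4 moving alike; gene models without a symbol of their own skipped), members of 30 gene lists, and epithelial markers named by the study. Members and lists were chosen with earlier results of these data known. Alternatives were no block, all epithelial libraries in the fit, other filters, RLE size factors, DESeq2 1.42.0, robust estimation, leaving out each mouse, and other estimates of the fibroblast share, of which those from Xist and from the lower quartile in the offset were added after seeing the data. Floors of 3 reads cover counting error only, and SDs cover the spread between libraries. SEs were taken from the log2 fold change and its F statistic, so they rest mostly on the spread shared over genes. Such an SE can be narrower than a gene's own spread. For Sftpa1 the log2 differences within mice 2, 3 and 4 were -3.79, -4.47 and -5.37, beside a plain SE of 0.12. On the adjusted scale the SEs also take the fibroblast share as known.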

Additional observations from a re-analysis of the deposited data

Results flagged for a closer look

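Within the 4 vehicle libraries, a library stood apart from the rest by Dixon's criterion at 6 of the 129 named genes. Chance alone picks about 1 in 20 groups, so a count of 6 is no more than that rate gives. Mouse 1 was high for the matrix genes Fn1 (747 CPM), Fbn1 (25.4 CPM) and Col5a1 (51.0 CPM), and its vehicle library also held the highest fibroblast share of that group, 9.49%. The others were Cxcl15 in mouse 4 (2062 CPM, high), Krt7 in mouse 3 (7957 CPM, high) and H2-Aa in mouse 4 (5.40 CPM, low).

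For 19 of the 20 genes named by the mixture-adjusted rule, the log2 response to TGF-β differed between the epithelial and the fibroblast fraction in edgeR's interaction test (adjusted p under 0.05), Krt5 being the exception. Over all 18558 genes tested, 20.1% were called higher and 6.14% lower in this test. The rule chose its genes from the same epithelial counts, for a change beyond the fibroblast mixture. The choice thus favoured such differences, and the count is no separate support for them. Beside all 19 differences stands the fall of epithelial RNA in the fibroblast libraries from 15.2–28.9% to 0.938–3.22%, and its part in them was not tested. Among genes that rose, the epithelial response exceeded that of the fibroblast fraction by 5.97 for Rgs4, 5.66 for Egfl6, 5.13 for Cd74, 4.50 for Lama3, 4.38 for Ntm, 3.92 for Fermt1, 3.60 for Ctse, 3.49 for Nrk, 3.05 for Kcnn3 and 1.92 for Sorcs2. Among genes that fell, it fell less than in the fibroblast fraction by 4.17 for Bpifa1, 3.96 for Retnla, 3.84 for Cxcl15, 3.31 for Sftpa1, 3.03 for Upk1b, 2.66 for Reg3g and 2.55 for Krt4. It lay below the fibroblast response for Aqp3 (-2.09) and Krt15 (-1.26).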

How the results depend on the processing

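Taking fibroblast RNA into account moved the number of called genes most: 7674 on the plain scale became 3852 with the share subtracted, 4237 with the mixture offset, and 4044, 3754 and 4510 with the offset's share taken from both mesenchymal lists, from Xist and from the lower quartile. Without the replicate block 7385 genes were called, and of the named genes only Foxj1 lost its call; the interaction test without the block called 4545 genes instead of 4863. Leaving out each mouse gave 5638 to 7651 calls, 2052 to 3538 of 3582 in the fibroblast fraction (2052 without mouse 4), 3511 to 5318 for the interaction and a share difference of 21.4 to 24.6 percentage points; 7 of 129 named genes lost their call or sign. DESeq2 called 6247 genes, 3 named genes losing their call, and robust estimation ended 4 such calls. The remaining filters and size factors ended none. The smallest p that the share test allows is 0.0571, and the offset takes the Epcam- fibroblasts of a culture to stand for those carried over.

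Directions turned for the following genes, in log2 units. With the share subtracted: Spp1 -10.86, Bgn -8.65, Id3 -3.64, Tgfb1 -1.09, Col1a2 -0.24, Snai1 -0.13 and Pdpn 0.16. The fibroblast share came to 130, 142 and 157% of the TGFb levels of Spp1 in mice 2, 3 and 4. For Bgn it came to 106, 137 and 152%. The subtraction thus left both genes without TGFb counts, and their values are no measured size of a fall. Id3, Col1a2 and Snai1 were left without TGFb counts in mice 3 and 4, and Tgfb1 in mouse 4. With the offset: Spp1 -0.58, Mgp -0.73, Id3 -0.83, Bgn -0.40, Snai1 -0.27, Col1a2 -0.18, Tgfb1 -0.17, Col1a1 -0.13, Pdpn 0.19 and Foxj1 0.005. With the share from both lists: Spp1 -0.71, Mgp -0.83, Id3 -0.95, Bgn -0.56, Snai1 -0.42, Col1a2 -0.32, Tgfb1 -0.30, Col1a1 -0.28, Col5a1 -0.12, Vim -0.11, Fbln2 -0.10, Col5a2 -0.038, Smad7 -0.006, Pdpn 0.25 and Foxj1 0.075. With the share from Xist: Spp1 -0.77, Mgp -0.94, Id3 -0.99, Bgn -0.63, Snai1 -0.45, Col1a2 -0.37, Tgfb1 -0.36, Col1a1 -0.30, Col5a1 -0.23, Fbn1 -0.21, Vim -0.20, Fbln2 -0.15, Itgb3 -0.14, Col5a2 -0.068, Smad7 -0.022, Zeb1 -0.007, Pdpn 0.26 and Foxj1 0.077. With the lower quartile: Spp1 -0.47, Mgp -0.67, Id3 -0.69, Bgn -0.24, Snai1 -0.14, Tgfb1 -0.039, Col1a2 -0.003 and Pdpn 0.14, while against the offset fit itself Col1a1 turned to 0.043 and Foxj1 to -0.050. Pdpn gave 0.020 without mouse 2 and Tekt1 ranged from -0.34 without mouse 4 to 0.87 without mouse 3, both uncalled.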
